A study of Mus musculus with 20 samples.

Results

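Day 14 was compared with 24 hours after total body irradiation, 10 of the 20 arrays of the series, 5 at each time. Each array measured amplified total RNA of marrow cells that the labels describe as VE-cadherin+ endothelial cells, taken from adult C57/Bl6 mice given as 8 to 10 weeks old. Both groups had received 5 Gy, and no other agent or allele is given for them. The other 10 arrays were 5 of non-irradiated mice and 5 taken 6 hours after the same dose. The labels number the 5 samples of a time as biological replicates without saying whether each was 1 animal or a pool, so p-values measure only the spread between these samples. The arrays of a time were chosen by their titles, no measured value was used, and all 18193 genes with a probe set of their own name were compared.

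Ionizing radiation breaks DNA, and the transcription factor p53 answers with cell cycle arrest genes and death genes. Dividing marrow cells, red cell precursors among them, are lost within hours, and the thin-walled sinusoids that carry blood through the marrow dilate and leak. Over the following weeks surviving progenitors refill the marrow, and endothelial and perivascular cells supply growth factors such as Kit ligand and Cxcl12 to them.

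Cdh5, the gene of VE-cadherin, was above background on all 10 arrays. None of the 30 pan-endothelial genes lay at background on all arrays of a time. Markers of other marrow cells were measured as well, though some of them lay at background at 1 time. Background here is the 95th percentile of the signals of 27 bacterial probe sets on the same array. Among the 17 pan-leukocyte genes none lay at background at either time, and their summed signal was 62130 to 68580 at 24 hours and 50290 to 52240 at day 14. The summed signal of 17 red cell membrane and haemoglobin genes was 11610 to 12730 at 24 hours and 92610 to 112300 at day 14. In a bulk sample fewer cells of a type and less RNA per cell cannot be told apart. The median signal of an array was 128 to 142 at 24 hours and 87.3 to 109 at day 14, although all arrays had been scaled to the same trimmed mean. The difference between the 3' and 5' Gapdh probe sets, a measure of RNA and amplification quality, overlapped between the times, at 0.715 to 0.863 and 0.752 to 1.04 on the log2 scale. Array pairs of 1 time correlated with a median of 0.954 at 24 hours and 0.959 at day 14, and pairs across the times with a median of 0.911.

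Changes below are differences of mean log2(signal + 1), day 14 minus 24 hours, with limma's standard error, and a positive value means higher at day 14. A gene was called changed at a Benjamini-Hochberg adjusted p under 0.05 in limma over all genes. On this scale 2765 genes (15.2%) rose and 3944 (21.7%) fell, so 36.9% of all genes changed. A change of at least 2-fold was seen in 1318 genes that rose (7.24%) and 2561 that fell (14.1%). The 5 arrays of 1 time all lay above the 5 of the other for 2865 genes higher at day 14 (15.7%) and 3755 lower (20.6%). The median change of all genes was -0.27. Centring every array on its median added 0.52 to every change, and with it 4971 genes rose (27.3%) and 1687 fell (9.27%), so the split of calls went from 41.2% to 74.7% higher. Quantile normalization gave 2840 rises (15.6%) and 2856 falls (15.7%), or 49.9% higher. A fit of the 10 compared arrays alone, on the deposited scale, called more genes, with 3523 rises and 5213 falls. All 2765 rises were called under centring too, and 1687 of the 3944 falls were. Because centring raised every change, it could hardly remove a rise, so counts of rises that it left unchanged are no check of them. Of 9 control genes 3 rose, 0 fell and the median change was 0.22, while all 9 rose after centring. A fall of less than 0.52 therefore turns into a rise when arrays are centred, and list counts after centring are given beside those on the deposited scale. List counts are to be read against the shares of all genes, 15.2% higher and 21.7% lower, or 27.3% and 9.27% after centring. Kif11, Hba-a1, Orc1, Dmc1, Myc, Hmox1, Lyve1, Cxcr4, Mgp and Des lie outside the rule for naming genes and were chosen after their values were seen.

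**Figure D1:**
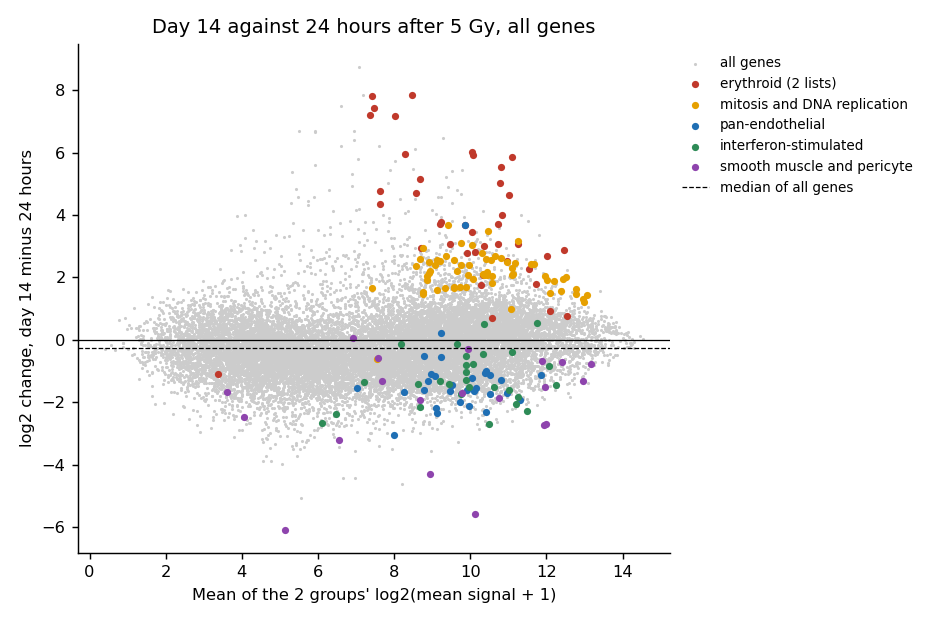
Change from 24 hours to day 14 (vertical axis, log2) against the mean level of the 2 groups (horizontal axis, log2 signal), with 1 point per gene. Most erythroid, mitosis and replication genes lie above 0 and most smooth muscle, endothelial and interferon-stimulated genes below it, while the dashed line marks the median of all genes at -0.27. The single endothelial list member high above 0 is Tal1, which is also on an erythroid list.

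Genes on the red cell lists rose by large amounts and made up 5 of the 12 largest rises. Of 17 measured genes of the red cell membrane and haemoglobin 16 rose and none fell, with a median change of 5.14. All 23 measured erythroid regulators and haem synthesis genes rose, with a median of 3.06. Both counts were the same after centring, which raises every change. Of the listed genes 7 of the first group and 1 of the second had no probe set of their own name.

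Blood group genes went from signals at or near the background to high signals. Rhd, which encodes the Rh D antigen carrier, gave 10.1, 71.2, 27.9, 18.4 and 5.28 on the 24-hour arrays and 4639, 4362, 4869, 4213 and 4315 on the day 14 arrays. The lowest day 14 array lay far above the highest 24-hour array, and the change was 7.84 ± 0.55 (adjusted p = 1.72e-11 in limma). Rhag, the Rh-associated glycoprotein, was at background on all 24-hour arrays, 5.85 to 21.9, and read 1479 to 2277 at day 14, at least 69.1-fold higher. For such genes the bound sets the day 14 mean against the array background wherever a 24-hour signal lay below it. Kel, the Kell metalloprotease, rose by 7.16 ± 0.52 from a mean of 25.5 ± 17.2 (SD, n = 5) to 2581 ± 91.1. The brighter Sptb probe set, for the spectrin beta chain of the membrane skeleton, rose at least 81.7-fold, while the other Sptb probe set changed by -0.57. Within this group Hba-a2, an alpha globin gene named for its function after its value was seen, rose by 0.92 ± 0.091 from 3193 to 6036, and probes of the near-identical alpha globin copies cannot be told apart with certainty. The one member past no threshold was Hba-a1, with 5.17 at day 14 and 16.5 at 24 hours, close to background on both.

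Klf1, the transcription factor that drives red cell maturation, read 157, 153, 172, 77.5 and 110 at 24 hours. At day 14 it read 9225, 8201, 8601, 8374 and 7361. The groups were separated on every array, and the change was 6.00 ± 0.23 (adjusted p = 3.2e-16 in limma). Trim10, a RING finger protein of erythroid cells, went from 13.6 ± 8.19 to 2129 ± 229, a change of 7.43 ± 0.38. Tfr2, the second transferrin receptor, rose by 4.70 ± 0.47, and Icam4, the red cell adhesion molecule of the LW blood group, by 4.76 ± 0.41. Alas2, the first enzyme of haem synthesis in red cell precursors, rose by 2.51 ± 0.13 from 841 ± 139 to 4775 ± 404, and Gata1 by 3.71 ± 0.21; both were chosen after their values were seen.

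Promoter sequences of 3 of these genes are shown because each holds the GATA core, letters that GATA factors are known to bind. The 3 were picked after the matches were seen. Sequences are RefSeq's for GRCm38.p6, read 5' to 3' on the strand of the gene, end at the base before the transcription start, and have the core AGATAA, or its reverse complement, in capitals.
Rhd, chr4:134864436-134864535, plus strand: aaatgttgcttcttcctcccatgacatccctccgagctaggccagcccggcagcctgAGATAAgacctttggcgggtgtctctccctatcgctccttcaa
Alas2, chrX:150547317-150547416, plus strand: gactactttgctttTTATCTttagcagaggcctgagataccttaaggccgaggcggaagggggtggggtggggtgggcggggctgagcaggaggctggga
Trim10, chr17:36869374-36869573, plus strand: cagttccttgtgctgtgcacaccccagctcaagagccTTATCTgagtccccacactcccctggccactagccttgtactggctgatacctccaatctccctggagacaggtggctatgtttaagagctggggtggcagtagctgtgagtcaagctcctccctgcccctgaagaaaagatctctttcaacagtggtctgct
In windows of 300 bases around the start site, searched on both strands, AGATAA was present for 7 of the 20 regulator and haem genes that had a promoter in the table (35%) and for 3 of 11 membrane genes (27.3%). Over all 14452 genes tested that had a promoter the share was 9.54%. The CACCC core CCACACCC, known as a Klf1 site, was in 1 of 20 and 0 of 11 of them, against 4.56% of all genes. A match describes these letters only and is no measure of binding.

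Outside the lists, the 12 largest rises with separated arrays held 7 more genes. Absence from the lists does not make them genes of other cells, and whether red cells express them was not tested. Btnl10, a butyrophilin family member, read 2.32, 3.35, 2.55, 5.33 and 18.1 at 24 hours, all at background, and 2791, 2485, 2176, 2461 and 2369 at day 14, at least 89.6-fold higher. Non-irradiated arrays averaged 1754 ± 67, and the arrays at 6 hours 31.2 ± 27.1. Fn3k, a kinase that removes sugars from glycated proteins, went from 11.3 ± 14.8 to 1727 ± 211. Cldn13, a claudin, went from 66.1 ± 18.6 to 5683 ± 192. Redrum rose at least 15-fold, Phyhip at least 21.1-fold and Sowaha at least 34.5-fold. Apol8 read 37.6 on 1 of 5 arrays at 24 hours and 0.957 to 3.69 on the others, which lay at background, and 776 to 1049 at day 14. Fn3k and Trim10 were likewise above background on 1 of 5 arrays at 24 hours, and Rhd and Kel on 2 of 5. The exact size of these changes, and their place in the order, rests on signals that were not above background.

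Genes of dividing cells rose as a body. All 29 measured mitosis genes rose, by 1.31 to 3.18 with a median of 2.21, and of 35 DNA replication genes 34 rose with a median of 2.04. For all 29 and for 34 of 35 the arrays of the 2 times were separated. The counts were unchanged by centring, which raises every change. Birc5, or survivin, a subunit of the chromosomal passenger complex, read 700, 983, 868, 736 and 739 at 24 hours and 8037, 7828, 7197, 7069 and 6269 at day 14. The lowest day 14 array stood far above the highest 24-hour array, a change of 3.18 ± 0.14 (adjusted p = 2.23e-15 in limma). Espl1, the separase that cuts sister chromatids apart, rose by 2.94 ± 0.27. The outer kinetochore subunits Nuf2 and Ndc80 rose by 2.70 ± 0.23 and 2.60 ± 0.61. Mki67, the proliferation marker Ki-67, had a smaller fold, 1.43 ± 0.077, from 5186 ± 466 to 14010 ± 1377.

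In the replication group Ccne1, the cyclin that starts S phase, rose by 3.68 ± 0.20 from 193 ± 49.5 to 2439 ± 393. Cdc6, which loads the replicative helicase, read 474, 302, 477, 484 and 385 at 24 hours and 4804, 4944, 4854, 4579 and 4584 at day 14, a change of 3.50 ± 0.16. The clamp loader subunit Rfc4 rose by 3.10 ± 0.16 and thymidine kinase Tk1 by 3.02 ± 0.28. Orc1, an origin recognition subunit, was the member that was not called, at -0.61 ± 0.51, and its 2 probe sets disagreed, since the dimmer one changed by 3.18. Homologous recombination and Fanconi genes moved alongside, with 17 of 20 higher, 1 lower and a median of 1.95 (18 higher and none lower after centring). Bard1, the partner of Brca1, read 88.5, 68, 26.8, 62.9 and 64.5 at 24 hours and 596, 539, 493, 550 and 435 at day 14, a rise of 3.14 ± 0.46. Rad51ap1 rose by 3.08 ± 0.33 and Brca1 by 2.85 ± 0.28, but the 4 Brca1 probe sets ranged from 0.35 to 2.85. Rad54b rose by 2.67 ± 0.87, and without 24-hour replicate 5, which read 3.24, its change was 2.03 and not called. The exception was Dmc1, the meiotic recombinase, which fell by 1.27 from a mean of 109 to 44.4, and after centring was not called.

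Promoters of 2 mitosis genes show the pair of letters typical of late cell cycle genes, a CCAAT box followed by a cell cycle homology region. They were chosen after the matches were seen, on the same source, build and orientation as above, with TTTGAA and CCAAT, or their reverse complements, in capitals. Kif11 encodes a spindle motor and rose by 2.12 ± 0.17.
Espl1, chr15:102296193-102296292, plus strand: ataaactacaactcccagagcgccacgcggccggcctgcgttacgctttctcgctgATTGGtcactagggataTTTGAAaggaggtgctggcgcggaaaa
Kif11, chr19:37376282-37376381, plus strand: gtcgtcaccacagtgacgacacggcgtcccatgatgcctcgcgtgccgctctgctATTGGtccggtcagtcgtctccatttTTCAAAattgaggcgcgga
Counted from the start site, TTTGAA began at -27 in Espl1 and -19 in Kif11, and CCAAT at -44 and -45. Of 25 mitosis genes with a promoter 20 held TTTGAA (80%, against 15.7% of all genes) and 21 held CCAAT (84%, against 42%). Of 29 replication genes 6 held the E2F core TTTCCCGC (20.7%, against 1.87%) and 5 held TTTGGCGC (17.2%, against 0.934%).

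**Figure D2:**
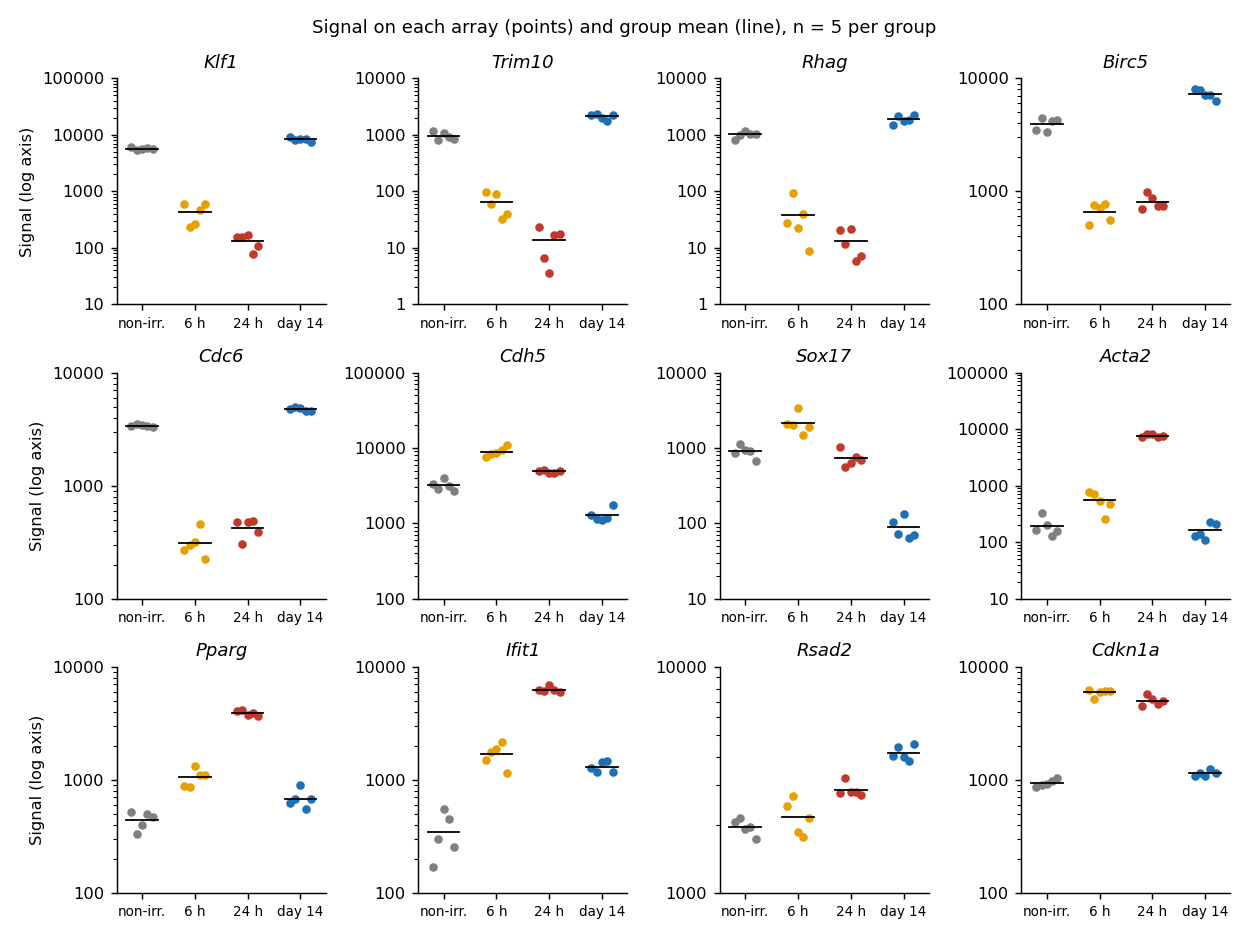
Signal of 12 genes on every array (points, log axis) with the group mean (line), for non-irradiated mice and 6 hours, 24 hours and 14 days after 5 Gy. Klf1, Trim10, Rhag, Birc5 and Cdc6 are low at 24 hours and high at day 14 with no overlap, Cdh5, Sox17, Acta2, Pparg, Ifit1 and Cdkn1a go the other way, and Rsad2 is higher at day 14.

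Genes of growth and energy supply rose by less. Of 23 ribosome biogenesis and Myc genes 18 rose and 1 fell, with a median of 0.76. Nolc1, a nucleolar chaperone, rose by 1.45 ± 0.16 and Dkc1, the pseudouridine synthase, by 1.31 ± 0.13. The member that fell was Mycn, from 281 ± 22.6 to 117 ± 74.8 (-1.48 ± 0.39, not called under quantile normalization), while its relative Myc rose by 0.55 ± 0.091. For the respiratory chain 26 of 28 genes rose and none fell, with a median of 0.61, led by Uqcrfs1, the iron-sulfur subunit of complex III (1.24 ± 0.17), and Uqcrc1 (1.04 ± 0.16). Of 21 cytosolic ribosomal protein genes 20 rose, with a median of 0.42. Rpl14 had the largest rise of these, 1.78 ± 0.26. All other calls on this list lay between 0.24 and 0.74. After centring the rises were 22 of 23, 27 of 28 and 20 of 21, with medians of 1.28, 1.13 and 0.94. The 9 control genes all rose there as well, with a median of 0.74.

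On the antioxidant list, built around NRF2 targets, 7 of 15 members rose and 2 fell, against 11 and 1 after centring. The subunits of the enzyme that limits glutathione synthesis rose together, Gclc by 2.83 ± 0.18 and Gclm by 1.96 ± 0.13, as did the peroxidase Prdx2 (2.25 ± 0.14), which is abundant in red cells, and the quinone reductase Nqo1 (1.67 ± 0.29). Hmox1, which breaks down haem, fell from 2150 ± 166 to 791 ± 27.1 (-1.44 ± 0.17). Asns, asparagine synthetase, read 823, 658, 721, 662 and 676 at 24 hours and 5504, 5484, 5353, 5508 and 5168 at day 14. That rise of 2.93 ± 0.13 was the largest on the list of unfolded protein and integrated stress genes, where 4 of 23 rose and 10 fell. Among the genes that fell there were the endoplasmic reticulum isomerase Pdia4 (-1.10 ± 0.13), whose probe sets ranged from -1.10 to 0.78 with a mean that was not called, and Sesn2 (-1.20 ± 0.24). The list's median turned from -0.22 to 0.29 with centring, where 10 rose and 3 fell. Of 20 DNA methylation and Polycomb genes 7 rose and 3 fell, and after centring 9 rose and none fell. The median of that list was -0.17, and 0.35 after centring. The maintenance methylation pair Uhrf1 and Dnmt1 rose by 2.29 ± 0.20 and 1.29 ± 0.13, and the Polycomb repressive complex 2 members Ezh2 and Suz12 by 1.95 ± 0.20 and 1.55 ± 0.14.

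Endothelial genes fell. Of 30 pan-endothelial genes 27 fell and 1 rose, with a median of -1.55, and after centring 26 fell and 2 rose. The gene that rose was Tal1, which is also an erythroid regulator, by 3.68 ± 0.22. Cdh5, which encodes the VE-cadherin of the sort, read 5019, 5097, 4680, 4706 and 4950 at 24 hours and 1298, 1144, 1094, 1172 and 1757 at day 14. All day 14 arrays lay below all 24-hour arrays, a change of -1.94 ± 0.12 (adjusted p = 2.74e-12 in limma). Its non-irradiated mean was 3186 ± 494. Pecam1, or CD31, fell from 1697 ± 257 to 426 ± 64.8 (-1.99 ± 0.18). Sox17, a transcription factor of arterial endothelium, fell furthest, from 1025, 559, 623, 762 and 696 to 104, 72.7, 134, 62.9 and 69.7 (-3.06 ± 0.24). S1pr1, the sphingosine phosphate receptor of vessel integrity, fell by 2.31 ± 0.14, and Ushbp1 by 2.33 ± 0.20. Cldn5, the tight junction claudin, stayed outside this pattern at 557 and 648 (0.22 ± 0.18, adjusted p = 0.36 in limma). It was chosen after its value was seen. The mean log2 signal of the list was 10.30 to 10.35 at 24 hours and 8.91 to 9.07 at day 14. Beside these falls stand the erythroid sums given above, which were higher at day 14; their part in the endothelial values was not tested.

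Sinusoidal and arterial genes were both lower. Of 20 sinusoidal genes 16 fell and none rose, with a median of -1.05 (12 fell and 1 rose after centring). Stab1, a scavenger receptor of sinusoidal endothelium, read 940, 1189, 1106, 1257 and 1597 at 24 hours and 332, 266, 523, 412 and 491 at day 14, a change of -1.61 ± 0.19. Ehd3, a membrane trafficking ATPase, fell by 1.85 ± 0.14, Emcn, or endomucin, by 1.70 ± 0.14 and Oit3 by 2.34 ± 0.47. Lyve1, a hyaluronan receptor, was among the 4 not called (0.39 ± 0.34). Of 19 arterial and arteriolar genes 13 fell and 2 rose, with a median of -1.49 (11 fell and 2 rose after centring). Efnb2, the ephrin of arteries, fell from 1047 ± 47.4 to 199 ± 17.8 (-2.39 ± 0.18), Cav1, the caveolar coat protein, by 2.28 ± 0.12 and Sema3g by 2.16 ± 0.27. The 2 that rose were Cxcr4, the Cxcl12 receptor that blood cells also carry, by 0.60 ± 0.079, and Mgp, matrix Gla protein, by 0.34 ± 0.078.

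Signalling and matrix genes of the vessel wall followed. Of 24 VEGF and sprouting genes 19 fell and 1 rose (median -1.08), led by the VEGF receptor Flt1, from 2068 ± 162 to 478 ± 34.5 (-2.11 ± 0.11), and by Pdgfb (-2.02 ± 0.32), the growth factor that recruits pericytes. Of 18 Notch pathway genes 11 fell and none rose (median -1.12). The receptors Notch4 and Notch3 fell by 2.03 ± 0.27 and 1.87 ± 0.17 and the ligand Jag1 by 1.64 ± 0.15. Of 23 TGF-beta and BMP genes 20 fell (median -1.07). Smad6, an inhibitor of BMP signals, read 1996, 1736, 1730, 1969 and 2034 at 24 hours and 321, 223, 249, 320 and 289 at day 14, a change of -2.76 ± 0.27. The BMP target Id1 fell by 2.22 ± 0.17. Of 31 semaphorins, plexins and neuropilins 17 fell and 1 rose (median -0.81). The semaphorin receptors Plxna2 and Nrp1 fell by 2.18 ± 0.12 and 1.26 ± 0.10. Sema3a, the secreted ligand, read 527, 483, 359, 439 and 438 at 24 hours and 257, 334, 356, 229 and 301 at day 14, groups that did not overlap yet missed the threshold (-0.61 ± 0.25, adjusted p = 0.0606 in limma). Over the alternative settings the Sema3a change ran from -0.69 to -0.09. Its adjusted p in limma ran from 0.003665 to 0.8248, so it was called lower in some settings. Of 21 basement membrane and matrix genes 19 fell and 1 rose (median -1.30), among them Col4a2, a collagen IV chain, from 8414 ± 378 to 2758 ± 146 (-1.61 ± 0.087), and Lamb1, a laminin chain (-1.60 ± 0.12). Of 18 coagulation and vessel tone genes 14 fell (median -1.19). The nitric oxide synthase Nos3 fell by 2.29 ± 0.32 and endothelin, Edn1, by 1.85 ± 0.37. F3, tissue factor, read 65.9 to 102 at 24 hours and 0.597 to 46.6 at day 14 (-2.70 ± 0.84), and it was not called without day 14 replicate 1 (-1.92) or under quantile normalization (-2.20). After centring these lists still had more falls than rises, with 12 against 3, 8 against 1, 14 against 1, 9 against 3, 15 against 2 and 12 against 0 in the order given.

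**Figure D3:**
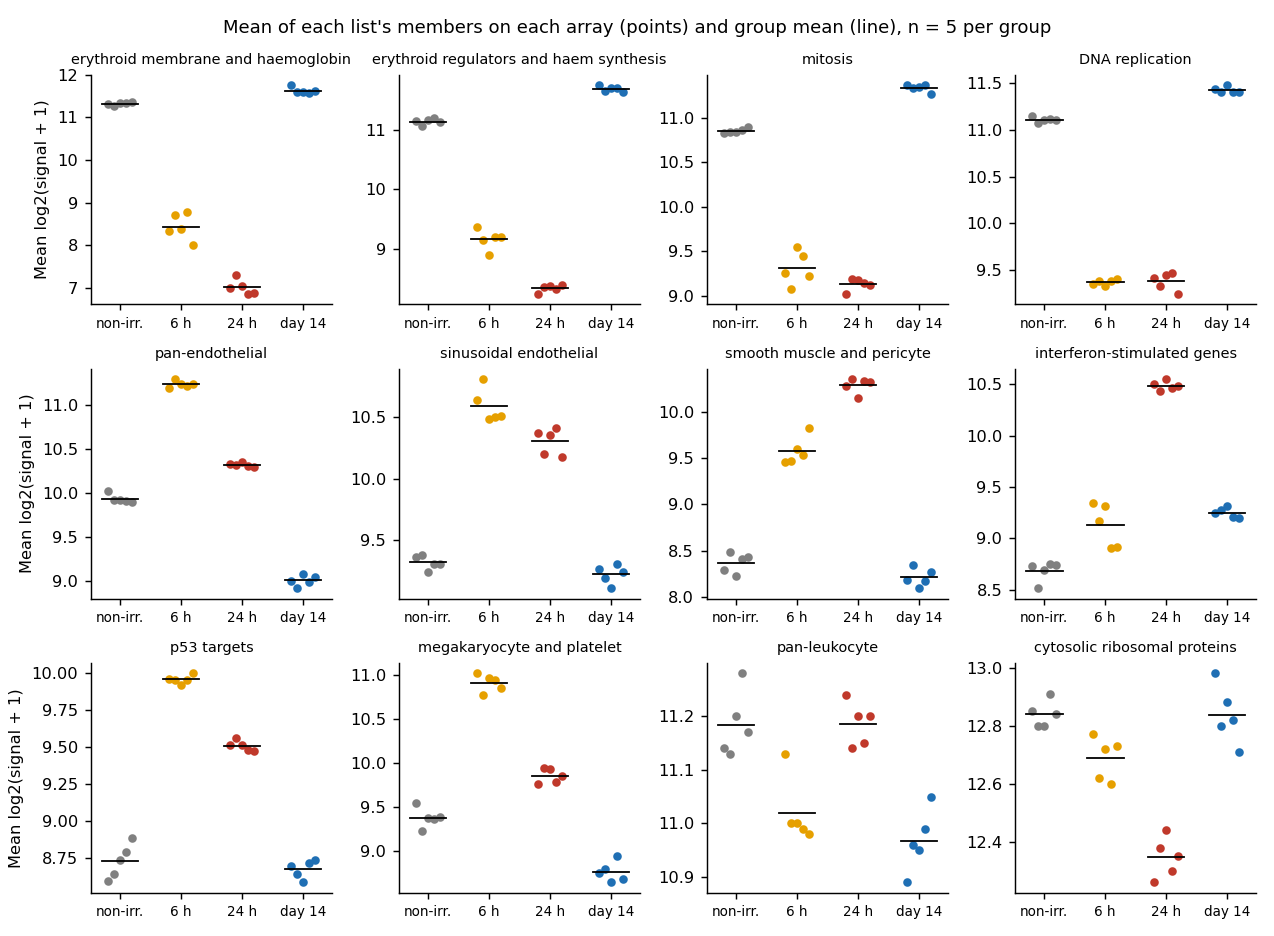
Mean log2 signal of the members of 12 gene lists on each array (points), with the group mean (line), for the 4 groups. Erythroid, mitosis and replication lists are lowest or near lowest at 24 hours and highest at day 14, and endothelial, smooth muscle, interferon-stimulated and p53 lists are lower at day 14 than at 24 hours on every array. The vertical scale differs between panels.

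Smooth muscle genes showed the deepest falls. Of 20 smooth muscle and pericyte genes 17 fell and none rose, with a median of -1.69 (-1.60 with background genes at their bound), and 13 fell after centring. Acta2, smooth muscle actin, read 7206, 8093, 8255, 7131 and 7516 at 24 hours and 128, 139, 110, 228 and 213 at day 14. That was a change of -5.59 ± 0.28 (adjusted p = 2.66e-14 in limma), with non-irradiated arrays at 195 ± 79.3. Its 3 probe sets ranged from -5.59 to -1.15, and the one left when probe sets open to cross-hybridization are dropped was not called. Actg2, the enteric smooth muscle actin, went from 275 ± 39.5 to background, at least 11.7-fold lower. Tagln, transgelin, fell by 4.29 ± 0.28 from 2171 to 112, and Cspg4, the NG2 proteoglycan of pericytes, by 3.22 ± 0.58. Des, desmin, was not called and read 119 and 123.

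Stromal and fat cell genes fell in part. Of 18 marrow stroma and osteoblast genes 15 fell (median -0.75), but after centring 8 fell and 4 rose. The osteoblast regulator Sp7, or osterix, read 2252, 2140, 2083, 2240 and 2159 at 24 hours and 579, 750, 476, 646 and 647 at day 14 (-1.82 ± 0.15). The mesenchymal regulator Prrx1 fell by 1.57 ± 0.20, nestin, Nes, by 2.13 ± 0.22 and alkaline phosphatase, Alpl, by 1.51 ± 0.11. Pparg, the master regulator of fat cells, read 4090, 4188, 3780, 3946 and 3681 at 24 hours and 624, 671, 901, 550 and 674 at day 14 (-2.54 ± 0.16). The non-irradiated mean of Pparg was 442 ± 76.8. Its partner Cebpa fell from 5596 ± 389 to 1983 ± 119. On the adipocyte list of 12 genes 6 fell and none rose, and after centring 2 fell and 1 rose.

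Among factors that support blood formation 15 of 27 fell and 1 rose, with a median of -1.19 (9 and 4 after centring). Il7, the growth factor of B cell precursors, read 2918, 3023, 2816, 2762 and 3377 at 24 hours and 592, 504, 489, 570 and 622 at day 14. Its change was -2.42 ± 0.23 (adjusted p = 3.84e-09 in limma), and the non-irradiated arrays averaged 447 ± 137. Hgf, hepatocyte growth factor, fell by 2.05 ± 0.29. Kitl, the Kit ligand, fell from 5320 ± 478 to 3470 ± 209 (-0.61 ± 0.099), and after centring changed by -0.10 and was not called. Cxcl12, which holds stem cells in the marrow, was 19930 ± 2724 and 18350 ± 1954 (-0.11 ± 0.088, adjusted p = 0.333 in limma). Its call depended on the scaling, with 0.40 and called higher after centring and -0.19 and called lower under quantile normalization. The 3 Cxcl12 probe sets ranged from -1.28 to -0.11, and the brightest, used here, changed least. Igfbp5, an insulin-like growth factor binding protein chosen after its value was seen, was the member that rose, by 0.45 ± 0.071.

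Interferon-stimulated genes fell. Of 28 measured members 23 fell and 1 rose, with a median of -1.38, and after centring 17 fell and 2 rose. Ifit1, which binds foreign RNA caps, read 6304, 6086, 6889, 6266 and 5966 at 24 hours and 1284, 1183, 1437, 1475 and 1165 at day 14. The change was -2.27 ± 0.22 (adjusted p = 6.5e-09 in limma). At day 14 Ifit1 was still 2.03 above the non-irradiated arrays, which averaged 347 ± 156. Ifit3 fell by 2.68 ± 0.22 from 3677 ± 330 to 572 ± 44.4. The antiviral GTPases Mx2 and Mx1 changed by -2.65 ± 0.63 and -2.37 ± 0.63, both lower on every day 14 array. Ifit genes are a family of close relatives, and cross-hybridization between them was not tested. Rsad2, or viperin, the member that rose, read 2759, 3237, 2791, 2797 and 2723 at 24 hours and 4042, 4418, 4001, 3840 and 4560 at day 14. Its change was 0.54 ± 0.11 (adjusted p = 0.000275 in limma), and all 3 of its probe sets were higher, by 0.54 to 1.10. Its neighbour in function, Cmpk2, had no overlap between the times either, at 0.50 ± 0.30 (adjusted p = 0.197 in limma); both genes were chosen after their values were seen.

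The promoters of Ifit1, Ifit3 and Rsad2 are shown because the 3 genes differ in direction while each holds the core of the interferon-stimulated response element. They were picked after the matches were seen, from the same source and build, with GAAANNGAA or its reverse complement in capitals, and overlapping matches run together.
Ifit1, chr19:34640739-34640888, plus strand: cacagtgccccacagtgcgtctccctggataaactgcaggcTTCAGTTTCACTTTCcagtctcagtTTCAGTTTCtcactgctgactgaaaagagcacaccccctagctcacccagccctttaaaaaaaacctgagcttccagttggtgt
Ifit3, chr19:34583369-34583528, plus strand: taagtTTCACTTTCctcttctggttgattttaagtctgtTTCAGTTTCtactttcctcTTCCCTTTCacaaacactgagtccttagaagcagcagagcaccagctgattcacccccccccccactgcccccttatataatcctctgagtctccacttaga
Rsad2, chr12:26456453-26456602, minus strand: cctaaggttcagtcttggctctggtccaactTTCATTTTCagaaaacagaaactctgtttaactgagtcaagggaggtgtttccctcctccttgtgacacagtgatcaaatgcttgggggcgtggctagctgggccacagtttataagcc
Ifit1 and Ifit3 had 3 matches each in these windows and Rsad2 had 1. Of 19 interferon-stimulated genes with a promoter in that source, 11 held the core (57.9%), against 8.7% of all genes.

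Lists of interferon gamma genes and of antigen presentation genes depended on the scaling. Of 13 interferon gamma GTPases and regulators 5 fell and none rose, with a median of -0.44 that turned to 0.08 with centring, where 2 fell and 3 rose. Gbp3, a guanylate binding protein, fell from 2096 ± 214 to 706 ± 106 (-1.57 ± 0.22), and the chemokine Cxcl10 fell from 2301 ± 23.4 to 1068 ± 136 (-1.11 ± 0.22). Cxcl9, the related chemokine, read 2803 ± 201 and 2728 ± 205, with 677 ± 94.4 on the non-irradiated arrays, and was chosen after its value was seen. Of 17 antigen processing and MHC genes 4 fell and none rose, a share near the 21.7% of all genes, while after centring 1 fell and 9 rose. The class I activator Nlrc5 fell by 1.25 ± 0.19. H2-D1, a class I heavy chain whose copies cross-hybridize, fell by 0.23 ± 0.071 and turned to 0.29 with centring.

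**Figure D4:**
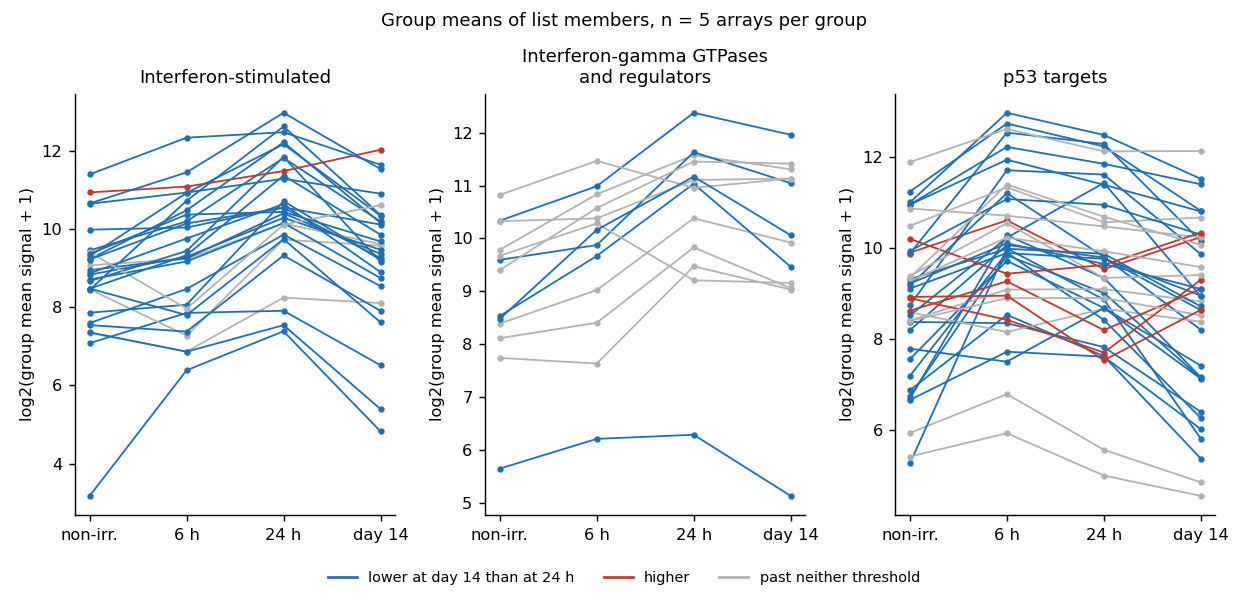
Group means (log2 of the mean signal, 5 arrays each) of every measured member of 3 lists over the 4 groups, 1 line per gene, blue where day 14 was lower than 24 hours, red where it was higher and grey where not called. Of 28 interferon-stimulated genes 23 are blue, of 13 interferon gamma genes 5, and of 38 p53 targets 22 are blue and 5 red; after centring the blue counts are 17, 2 and 15.

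The p53 targets were mostly lower. Of 38 measured targets 22 fell and 5 rose, with a median of -0.63, and 15 fell and 8 rose after centring. Cdkn1a, the cell cycle inhibitor p21, read 4547, 5716, 5162, 4704 and 4956 at 24 hours and 1083, 1157, 1082, 1243 and 1142 at day 14 (-2.13 ± 0.096, adjusted p = 4.81e-15 in limma). The day 14 arrays were still higher than the non-irradiated ones by 0.28 (adjusted p = 0.04 in limma). The receptor Eda2r fell by 3.20 ± 0.48, the adenylate kinase Ak1 by 2.52 ± 0.16, the death receptor Fas by 2.29 ± 0.32 and Dcxr by 2.22 ± 0.23. Mdm2, which degrades p53, fell from 2693 ± 253 to 1792 ± 96.7 (-0.58 ± 0.12), and after centring changed by -0.07 and was not called. Over all the alternative settings its change ran from -1.655 to -0.07. The 5 that rose, named after their values were seen, were Ckap2 (1.64 ± 0.22), Pidd1 (1.12 ± 0.27), Gtse1 (0.90), Gadd45a (0.71) and Sesn1 (0.67 ± 0.21). Ckap2 and Gtse1 encode proteins of the mitotic microtubules. Of 17 apoptosis regulators 6 fell (35.29%, against 21.7% of all genes) and 3 rose (17.65%, near the 15.2% of all genes). The survival factors Bcl2 and Bcl2l1 fell by 1.30 ± 0.15 and 1.12 ± 0.25, and Bmf, a death promoter, by 1.16 ± 0.22, a call lost without probe sets open to cross-hybridization. The median of that list, -0.39, turned to 0.13 with centring, where 3 fell and 5 rose.

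Inflammatory and stress genes were lower in part. Of 27 NF-kB and inflammatory genes 11 fell and 2 rose, with a median of -0.56 (7 and 4 after centring). Il1b, interleukin 1 beta, read 1532, 1273, 1324, 1400 and 1196 at 24 hours and 165, 222, 231, 170 and 173 at day 14. The change of -2.81 ± 0.26 took it below the non-irradiated arrays, 1232 ± 164. The neutrophil chemokine Cxcl2 fell by 2.69 ± 0.18, the cytokine Lif from 318 ± 125 to 67.3 ± 26.4 and P-selectin, Selp, by 1.47 ± 0.21. The 2 that rose, named after their values were seen, were the monocyte chemokine Ccl2, from 2769 ± 609 to 3989 ± 395 (0.55 ± 0.17), and Tnfaip2 (0.88 ± 0.11). Of 23 immediate early and stress factors 15 fell and 2 rose, while after centring 3 fell and 7 rose. Fosb fell by 1.72 ± 0.097, the flow-responsive factor Klf2 from 2913 ± 136 to 1039 ± 168 and Klf4 by 1.24 ± 0.084, whereas Egr2 rose by 1.35 ± 0.28.

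Metabolic and clock genes gave mixed results. Of 21 sterol and fatty acid synthesis genes 8 fell and 1 rose, with Hmgcs1, the synthase at the start of sterol synthesis, lower by 1.13 ± 0.16 and Mvk, mevalonate kinase, by 1.51 ± 0.32. That list's median turned from -0.24 to 0.28 with centring, with 2 lower and 6 higher. Of 14 glycolysis genes 4 rose and 5 fell, and after centring 6 rose and 1 fell. The glucose transporter Slc2a1 fell by 1.22 ± 0.18 and the hexokinase Hk1 and the pyruvate dehydrogenase kinase Pdk1 rose by 1.43 ± 0.18 and 2.14 ± 0.37. Of 18 circadian clock genes 14 fell and 1 rose (4 and 1 after centring). Per3 fell by 1.45 ± 0.19 and Per2 by 1.27 ± 0.21, and the gene that rose was Arntl, the partner of Clock, by 1.05 ± 0.39, with a second probe set at -0.41; it was chosen after its value was seen. The time of day of the samplings is not given in the labels, so it cannot be told apart from the time after irradiation.

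Lists of other blood cells had few or no rises on the deposited scale, apart from B lineage genes. Of 15 megakaryocyte and platelet genes 13 fell and none rose, with a median of -1.17 and with 10 lower after centring. Clec1b, a platelet receptor, fell from 885 ± 165 to 322 ± 83.7 (-1.47 ± 0.23). The platelet collagen receptor Gp6 fell by 2.11 ± 0.52. Of 17 neutrophil genes 9 fell and none rose, among them the mature-cell receptors Csf3r (-1.56 ± 0.24) and Cxcr2 (-1.41 ± 0.23), while the early granule genes Mpo and Elane read 11100 and 10690, and 3725 and 3737, and were not called; these 2 were chosen after their values were seen. After centring 4 neutrophil genes fell and 7 rose. Of 22 monocyte and macrophage genes 8 fell and none rose (3 and 4 after centring), with Axl, a receptor for dying cells, at -1.36 ± 0.20 and its second probe set at 0.20, so that their mean was not called. Of 15 T and NK genes 0 passed the threshold in either direction in limma, against 36.9% of all genes, 2 had an unadjusted p under 0.05, and 3 rose after centring. Of 10 mast cell and basophil genes 1 fell, Hdc, which makes histamine, by 1.14 ± 0.19, and after centring 1 fell and 4 rose.

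Some B lineage genes were higher at day 14. Of 17 measured 7 rose and 1 fell, with a median of 1.05 (0.99 with the background gene at its bound), and 13 rose after centring. The summed signal of the list overlapped between the times, at 4126 to 4678 and 4240 to 4838. Rag1, the recombinase of antigen receptor genes, was at background on all 24-hour arrays and read 96.1, 93.6, 80, 13.7 and 33.2 at day 14, at least 1.9-fold higher, with 4 of 5 arrays above background. Pax5, the B cell identity factor, rose by 2.67 ± 0.66 from 26.2 ± 20.9 to 126 ± 35.9, but its 2 probe sets ran from -0.92 to 2.67 and their mean was not called. Il7r, the interleukin 7 receptor, rose by 1.57 ± 0.61 with overlapping arrays, and the call was lost when any of 8 of the 10 arrays was left out, with changes of 1.35 to 1.65 there. The member that fell was Ebf1, chosen after its value was seen, from 1914 ± 204 to 1124 ± 81.1. Of 16 stem and progenitor genes 8 fell and 2 rose (4 and 4 after centring), with Meis1 at -1.68 ± 0.47 (not called under quantile normalization), Hoxa9 at -1.26 ± 0.29 (not called after centring) and, chosen after its value was seen, Myb at 0.70 ± 0.13. Ptprc, the pan-leukocyte CD45, read 4503, 3674, 3529, 3637 and 3713 at 24 hours and 2421, 2818, 2824, 2870 and 2696 at day 14 (-0.48 ± 0.11), and its change was 0.04 and not called after centring. The Ptprc call was also lost with the mean of its probe sets and without those open to cross-hybridization. Of the 17 pan-leukocyte genes 9 fell and 1, Was, rose, while after centring none fell and 4 rose.

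The largest falls outside the lists were 9 genes of no common family. Slc22a14, an organic ion transporter family member, read 213, 316, 241, 286 and 291 at 24 hours and was at background on all day 14 arrays, at least 11.4-fold lower. The immunoglobulin kappa segment Igkv15-103 fell from 1427 ± 250 to 59.7 ± 23.3 (-4.62 ± 0.30), and its probes may cross-hybridize with other kappa segments. Ifi27l2a, an interferon-inducible gene, fell from 1661 ± 182 to 147 ± 56.9 (-3.56 ± 0.29). The potassium channel gene Kcnq3 fell by 4.43 ± 0.56 and Tlcd3b by 4.44 ± 0.56. The brightest Tlcd3b probe set carried that value, since the 4 ranged to -0.57, and without those open to cross-hybridization the gene was not called. Bcam, a laminin receptor, Klra8, a receptor of NK cells, and Gzme, a granzyme, fell to background, at least 5.17-fold, 3.86-fold and 3.43-fold, and the last 2 belong to gene families with near-identical copies. Olfm2 fell by 3.73 ± 0.81. At day 14 Kcnq3 and Olfm2 were above background on 2 of 5 arrays and Tlcd3b on 3, so the exact size of their falls is uncertain.

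**Figure D5:**
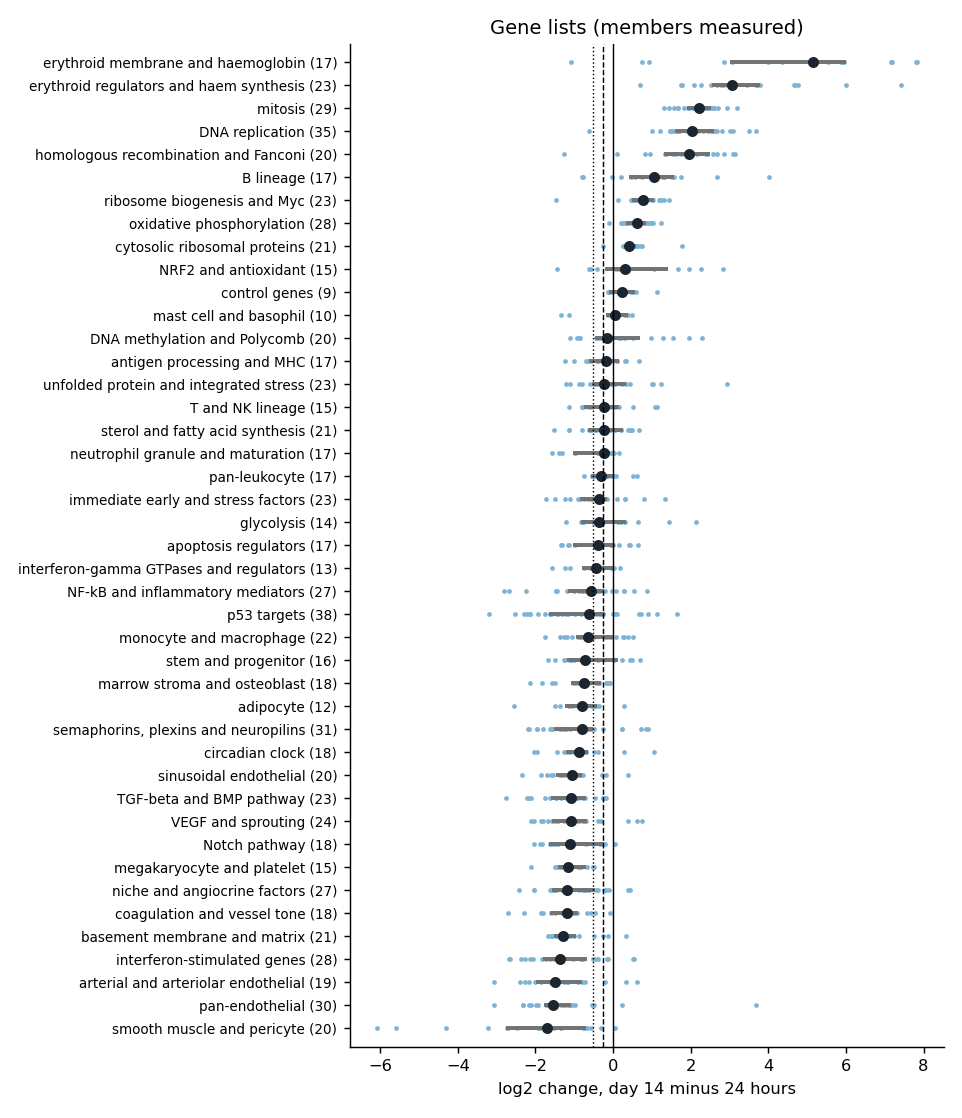
Changes from 24 hours to day 14 (horizontal axis, log2) of the members of the 43 gene lists, ordered by median, with each member as a pale point, the median as a dark point and the middle 50% of members as a bar. The solid line is no change, the dashed line the median of all genes (-0.27) and the dotted line the place of no change after centring each array. Medians run from -1.69 for smooth muscle to 5.14 for the red cell membrane, and those between the dotted and the solid line turn from lower to higher with centring.

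Set against the non-irradiated arrays, each time gave its own values, here on the deposited scale. These comparisons share the non-irradiated arrays with each other and the irradiated arrays with the comparison above, so they are not separate evidence. At 24 hours 2861 genes were higher (15.7%) and 2513 lower (13.8%) than without irradiation, and at day 14 1723 were higher (9.47%) and 2359 lower (13%). For the 29 mitosis genes the median was -1.72 at 24 hours, with 29 lower, and 0.47 at day 14, with 11 higher and 1 lower. For the 23 erythroid regulators it was -2.59 with 23 lower and then 0.55 with 13 higher and none lower. The 30 pan-endothelial genes had a median of 0.29 at 24 hours (12 higher, 1 lower) and -0.82 at day 14 (2 higher, 21 lower). The 20 sinusoidal genes went from 0.95 (15 higher) to -0.11 (2 higher, 1 lower), and the 20 smooth muscle genes from 1.30 (15 higher) to -0.02 (5 higher, 2 lower). The 28 interferon-stimulated genes had 0.62 at day 14, with 12 higher and 2 lower, after 1.45 with 25 higher. For the 13 interferon gamma genes the median was 1.88 at 24 hours, with 10 higher, and 1.38 at day 14, with 9 higher. Centring would add 0.38 to every change at 24 hours and 0.90 to every change at day 14. With it the day 14 median turned to 0.08 for the pan-endothelial, 0.79 for the sinusoidal and 0.88 for the smooth muscle genes, an alternative chosen after the data were seen. Hybridization controls, added to every sample alike, were 12.01 to 12.36 at 24 hours, 11.95 to 12.38 at day 14 and 12.66 to 12.87 without irradiation, on the log2 scale. The 3' to 5' Gapdh difference was 1.27 to 1.36 without irradiation, above all arrays of 24 hours and day 14. The 6-hour arrays, also irradiated, had controls of 12.66 to 13.04 and a Gapdh difference of 1.26 to 2.03. The part of these 2 measures in the comparisons with the non-irradiated arrays was not tested, and 24 hours and day 14 overlapped in both.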

How the data were processed

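The protocols in the labels name Qiagen columns for the RNA and a NuGEN kit for its amplification before hybridization to Affymetrix mouse arrays. The deposited values are intensities, 1 per probe set and array, on a linear scale. Every array has the same trimmed mean, while the summarization method is not given in the sources used here. Affymetrix Expression Console and Transcriptome Analysis Console are named in the submitters' processing notes.

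Of 45101 probe sets 34945 had 1 gene symbol, 932 had several, 9160 had none here and 64 were controls. The brightest probe set by mean over the 20 arrays stood for each of 18193 genes. Values were log2(signal + 1), fitted with limma 3.58.1 in R 4.3.3 over all 20 arrays (lmFit, eBayes with an intensity trend). Benjamini-Hochberg adjustment was over all genes. The fit was also run on simulated data with 200 changed genes, far fewer than were called here, and no overall shift between arrays. There it recovered 17.91% of 1.5-fold, 29.85% of 2-fold and 62.12% of 4-fold changes, and 4 of 77 calls were false. Figures were drawn in Python 3.11.15. Background was the 95th percentile of 27 bacterial probe sets with no target added. A gene at background on all arrays of 1 time has a bound only, for which each array of that time was set to the higher of its background and its own signal. The number of arrays limits the precision.

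Named genes were the 12 largest rises and 12 largest falls that were called, did not overlap and were above background in the higher group, leaving out predicted and clone symbols. Up to 4 genes per list followed, with Cdkn1a, Mdm2, Mki67, Cdh5, Pecam1, Ptprc, Kitl, Cxcl12, Sema3a, Nrp1, Acta2, Klf1 and Ifit1 always named. The comparison and all 43 gene lists, which held 902 genes with 826 measured, were chosen with earlier results of these data known. Alternatives were quantile normalization, median centring, a filter on dim genes, averaged probe sets per gene, dropping the probe sets whose suffix marks possible cross-hybridization, 16 added before log2, no variance trend, array weights, the 10 arrays alone, a replicate block and leaving out each array. Promoters are RefSeq's for GRCm38.p6, matched by symbol.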

Additional observations from a re-analysis of the deposited data

Results flagged for a closer look

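In 30 of 458 groups of 5 arrays examined, 1 array lay apart from the other 4 by Dixon's criterion, which chance meets in about 1 group in 20. No cause was tested, and each value below is the signal of the array that stood apart.

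At 24 hours, replicate 3 was the lowest for Bard1 (26.8) and Tlcd3b (120), the highest for Bcam (212), Gp6 (199) and Lif (540), and the lowest for the mean log2 signal of the homologous recombination and Fanconi list (6.956, others 7.158 to 7.239). Replicate 1 was the highest for Lcp1 (10400), Ptprc (4500) and Tap2 (366) and the lowest for Klra8 (32.6) and Mmp8 (2030). Replicate 2 was the highest for Ndufs1 (1400) and the lowest for Sema7a (1920). Replicate 4 was the highest for Nuf2 (287) and the lowest for Kel (1.01) and Sdha (6780). Replicate 5 was the highest for Bhlhe41 (139) and Nolc1 (1510).

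At day 14, replicate 5 was the highest for Cxcl10 (1310) and for the mean log2 signal of the circadian clock list (8.58, others 8.294 to 8.363), and the lowest for Per3 (286). Replicate 1 was the lowest for Sema3g (78.3) and Tlcd3b (3.08) and the highest for the erythroid membrane list (11.76, others 11.58 to 11.61). Replicate 2 was the lowest for Hdc (792), Ppp1r15a (1350) and Sowaha (687). Replicate 3 was the lowest for Uhrf1 (5260) and for the mast cell list (6.982, others 7.357 to 7.479), and replicate 4 was the highest for Axl (646).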

How the results depend on the processing

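Median centring gave 4971 genes higher and 1687 lower at day 14, with 3023 and 851 at 2-fold or more, and quantile normalization gave 1506 lower at 2-fold or more. The replicate block gave 2750 and 3847. More genes were called with the 10 arrays alone, 3523 higher and 5213 lower, and with array weights, 3461 and 5458. Correlations between same-numbered arrays, of their deviations from the group means, were -0.031 to 0.024 with 0 over 0.1. No shared effect of the number was seen, which does not settle whether samples were paired. The block lost the calls of Il7r and Tap2. Leaving out 1 array gave 2576 to 2632 higher and 3523 to 3863 lower, and 1280 to 1314 and 2357 to 2671 at 2-fold or more. Centring turned Cxcl12 to 0.40, H2-D1 to 0.29 and Ptprc to 0.036. It turned the list medians of interferon gamma (0.075), antigen processing and MHC (0.33), neutrophil (0.27), T and NK (0.29), pan-leukocyte (0.21), sterol (0.28), glycolysis (0.15), unfolded protein (0.29), immediate early (0.15), apoptosis (0.13) and DNA methylation and Polycomb (0.35) above 0. Quantile normalization turned T and NK (0.037) and DNA methylation and Polycomb (0.014), and without dim genes T and NK was 0.043. The mast cell median of 0.06 ran from -0.064 to 0.16 when 1 array was left out, with -0.043, -0.025 and -0.045 among them. The mean of probe sets turned Cd247 to -0.52, and dropping the probe sets marked for cross-hybridization turned Msmo1 to 0.13. Of 186 named genes centring lost 24 calls and quantile normalization 15. Centring moves every value by its construction, and other causes were not tested. Low signals limit 1423 genes at background on all 10 arrays.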

Other observations

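The 10092 probe sets without a single gene name were fitted in the same way with limma and are in no comparison above. Of these 540 were higher and 1945 lower at day 14 than at 24 hours, with a median change of -0.55 on the log2 scale.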
